A study of Mus musculus with 6 samples.

Results

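The genes described here are the Gadd45 family (Gadd45a, Gadd45b and Gadd45g) and 7 genes known as targets of the transcription factor p53 (Trp53inp1, Eda2r, Mdm2, Ccng1, Zmat3, Phlda3 and Plk2). They were taken by gene symbol, and each of the 10 symbols had 1 row among the 22988 rows used. Expression was measured in C2C12, an established mouse myoblast line (strain label C3H) grown in medium with fetal bovine serum. The 3 libraries of polyadenylated RNA came from non-starved cells given the siRNA named siNS (the control library), siNS cells starved in Hank's balanced salt solution for 4 h (the starved library), and non-starved cells given siRNA against Foxk1 (the knockdown library). All 3 groups had therefore received an siRNA, and a starved siFoxk1 group is not analysed here. With 1 library in each group there is no replicate spread to set a difference against, and no gene was tested.

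GADD45 proteins are small acidic proteins without enzyme activity of their own that are made rapidly under stress. They bind and activate the kinase MAP3K4 at the top of the p38 and JNK cascades, bind the replication clamp PCNA, inhibit the mitotic kinase CDK1 with cyclin B1, and take part in DNA demethylation. Gadd45a was first known as a DNA damage gene under p53 control, and in skeletal muscle it is also known as a target of the amino acid response factor ATF4 during atrophy. The p53 protein is controlled mainly by its stability, and its targets include the ligase Mdm2 that degrades it, cell cycle inhibitors and apoptosis genes.

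Levels are given in FPKM (fragments scaled to transcript length and library size), with the deposited lower and upper 95% limits in parentheses. Values whose limits do not overlap are called apart; this compares single libraries, not conditions. Fold changes are differences in log2(FPKM + 1), which understate the change of low genes, and ratios are of plain FPKM. A value in a bulk library cannot tell a change in RNA per cell from a change in the share of cells that express the gene.

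The 250 bases before the start of the 3 Gadd45 genes and of Eda2r are shown. Of these 4 genes 3 were apart in the starved library, in both directions. Plk2 was also lower apart there, but its bases are not shown. The bases shown are from RefSeq, build GRCm38.p6, written 5′ to 3′ on the strand of each gene. Capitals mark every match to the 5 motifs described after the sequences. The start used for Eda2r lies inside its RefSeq gene span, which ends at base 97377234 of chrX, so the last bases shown for it fall within that span.
Gadd45a (chr6:67037408-67037657, - strand): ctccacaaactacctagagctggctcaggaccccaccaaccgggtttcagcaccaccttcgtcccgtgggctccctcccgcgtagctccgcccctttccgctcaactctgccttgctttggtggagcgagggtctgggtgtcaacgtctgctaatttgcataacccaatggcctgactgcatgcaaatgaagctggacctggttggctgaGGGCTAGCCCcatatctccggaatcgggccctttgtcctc
Gadd45b (chr10:80929841-80930090, + strand): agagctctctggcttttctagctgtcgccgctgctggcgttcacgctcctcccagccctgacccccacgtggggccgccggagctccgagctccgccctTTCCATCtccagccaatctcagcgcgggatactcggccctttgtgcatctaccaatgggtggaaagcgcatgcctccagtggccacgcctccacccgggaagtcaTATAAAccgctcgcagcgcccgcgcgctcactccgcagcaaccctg
Gadd45g (chr13:51846425-51846674, + strand): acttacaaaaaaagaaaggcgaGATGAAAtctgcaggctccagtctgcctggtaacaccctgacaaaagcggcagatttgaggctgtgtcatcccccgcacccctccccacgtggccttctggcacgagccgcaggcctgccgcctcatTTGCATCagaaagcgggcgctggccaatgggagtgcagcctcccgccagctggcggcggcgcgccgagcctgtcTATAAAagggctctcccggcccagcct
Eda2r (chrX:97377210-97377459, - strand): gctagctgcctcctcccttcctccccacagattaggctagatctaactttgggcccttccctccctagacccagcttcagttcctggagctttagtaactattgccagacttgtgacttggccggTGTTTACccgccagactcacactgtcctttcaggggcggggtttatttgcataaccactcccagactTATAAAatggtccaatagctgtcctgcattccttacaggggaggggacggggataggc

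Promoter windows of 300 bases (250 before to 50 after the start) were found for 8 of the 10 genes, and Trp53inp1 and Zmat3 had none in the table used. For Eda2r and Ccng1 the start used lay inside the RefSeq gene span, and positions are counted from the start used. Both strands were searched for the forkhead motif GTAAACA and for GATGNAA, the core of composite C/EBP and ATF sites. The other motifs were the core TGACG of cAMP response elements, the TATA box TATAAA, and the degenerate p53 half-site. Counting from 0 at the start base, Gadd45a held a p53 half-site at -40 to -31 and none of the other 4 motifs. Gadd45g held GATGNAA at -228 to -222 and, on the opposite strand, at -101 to -95, and a TATA box at -27 to -22. Gadd45b held GATGNAA on the opposite strand at -151 to -145 and a TATA box at -46 to -41. The forkhead motif was present in 2 of the 8 windows, Eda2r (-125 to -119, opposite strand) and Mdm2 (-153 to -147), beside 3.65% of all 32817 mouse promoter windows. The p53 half-site was in 3 of 8 windows (Gadd45a, Mdm2 and Ccng1) beside 8.36% of all windows, GATGNAA in 2 beside 12.3%, TGACG in 2 (Mdm2 and Plk2) beside 20.8%, and TATAAA in 3 beside 13.6%. In Plk2 the TGACG matches of the 2 strands at -62 to -58 and -59 to -55 overlap, and no match to one motif overlapped a match to another in the 8 windows. The matches describe these letters only, and p53 sites in introns lie outside the windows.

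In the library of starved cells the Gadd45 family differed in make-up from both non-starved libraries. Gadd45a stood at 16.5 FPKM (12.5 to 20.4) in control cells, 149 FPKM (118 to 179) in starved cells and 27.3 FPKM (20.7 to 33.4) in knockdown cells. The starved value was thus far above both others, and the limits of all 3 libraries were apart from one another. The ratio of starved to control was 9.01, or 5.76 between the nearest and 14.4 between the farthest limits, a log2 fold change of 3.10. This was rank 20 from the highest of the 11396 rows at 1 FPKM or more in either library.

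Gadd45g differed in the opposite direction. It stood at 79.4 FPKM (60.5 to 87.2) in control cells, 26.7 FPKM (20.0 to 32.8) in starved cells and 80.1 FPKM (59.1 to 88.5) in knockdown cells. The starved library alone was low, at 0.336 times the control (log2 fold change -1.54), while control and knockdown overlapped almost fully (ratio 1.01). Gadd45b stood at 19.1 FPKM (15.0 to 22.9) in control cells, 15.3 FPKM (11.9 to 18.5) in starved cells and 27.2 FPKM (20.9 to 31.9) in knockdown cells. Its limits overlapped with the control in both comparisons, with ratios of 0.802 and 1.43, but the starved and knockdown libraries were apart from each other (ratio 0.561).

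Summed over the family, FPKM was 115 for control, 190.7 for starved and 135 for knockdown cells. Gadd45g made up 69.1% of the sum in the control and 59.5% in the knockdown library, but 14.0% in the starved library, where Gadd45a made up 78.0%. Gadd45a had been 14.4% of the control sum and was 20.3% of the knockdown sum. The limits of Gadd45a and Gadd45g were apart within each of the 3 libraries, with Gadd45a above Gadd45g in starved cells and below it in both non-starved libraries. Gadd45a and Gadd45b were nearly equal in knockdown cells, at 27.3 and 27.2 FPKM.

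**Figure D1:**
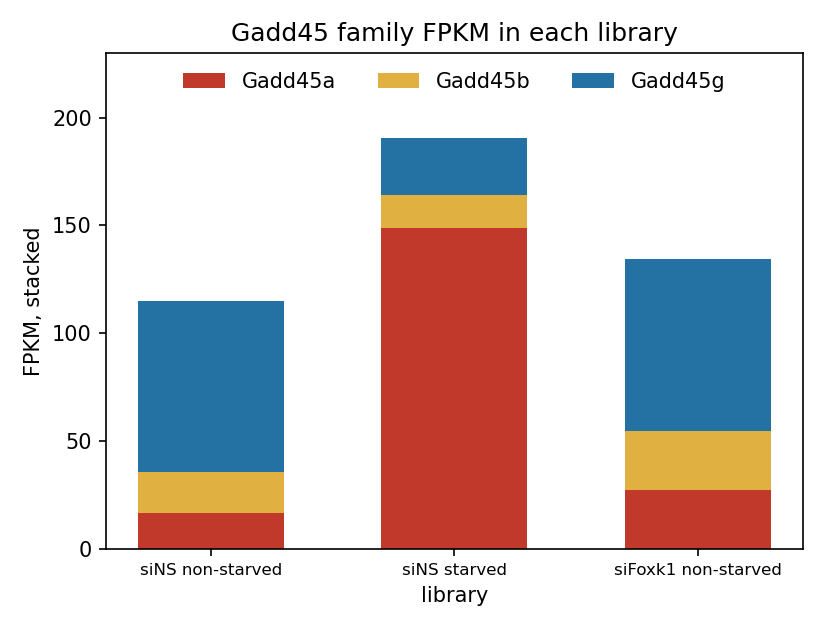
Stacked bars give the FPKM of Gadd45a (red), Gadd45b (yellow) and Gadd45g (blue) in each of the 3 libraries, with 1 library per bar and no error shown. Gadd45a fills 78.0% of the starved bar, and Gadd45g 69.1% and 59.5% of the control and knockdown bars.

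Among the p53 targets, a receptor and a stress cofactor had the highest ratios of starved to control. Eda2r, the receptor of the TNF family ligand ectodysplasin A2, stood at 7.53 FPKM (5.85 to 9.15) in control cells, 32.1 FPKM (25.6 to 42.2) in starved cells and 5.70 FPKM (4.36 to 7.03) in knockdown cells. The starved library was 4.26 times the control with limits apart (log2 fold change 1.96), and the control and knockdown limits overlapped (ratio 0.758). Its ligand gene Eda was near 0 in all 3 libraries, with a highest value of 0.0122 FPKM. Trp53inp1, a p53 cofactor that also acts in autophagy, stood at 6.65 FPKM (4.84 to 7.29) in control cells, 25.4 FPKM (23.5 to 35.7) in starved cells and 8.54 FPKM (6.15 to 9.59) in knockdown cells. Here too the starved library alone was high, at 3.83 times the control (log2 fold change 1.79), although its mean lay close to its own lower limit.

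Zmat3, a zinc finger protein that binds RNA, was higher in the starved library by little more than its limits. It stood at 12.5 FPKM (9.49 to 14.0) in control cells, 17.2 FPKM (14.1 to 22.8) in starved cells and 13.6 FPKM (10.2 to 15.6) in knockdown cells. The ratio of starved to control was 1.37, and 1.00 between the nearest limits, so the call rests on a very small gap. Mdm2, the ubiquitin ligase of p53, stood at 37.6 FPKM (31.1 to 43.4) in control cells, 48.9 FPKM (40.1 to 57.3) in starved cells and 32.1 FPKM (26.2 to 37.9) in knockdown cells. Neither differed from the control beyond the limits (ratios 1.30 and 0.854), while the starved library was apart from the knockdown library (ratio 1.53).

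The stress kinase gene Plk2 had the lowest starved value relative to the control among the 7 p53 targets. It was at 60.9 FPKM (51.7 to 70.0) in control cells, 27.9 FPKM (23.5 to 32.2) in starved cells and 75.7 FPKM (63.5 to 88.0) in knockdown cells. The starved value was 0.458 times the control with limits apart (log2 fold change -1.10), and the knockdown value overlapped with the control (ratio 1.24). Phlda3, which encodes a lipid-binding repressor of Akt, had the highest control level of the 10 genes, 145 FPKM (115 to 175). Starved cells gave 112 FPKM (90.5 to 132) and knockdown cells 145 FPKM (118 to 174), with overlapping limits throughout.

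Ccng1, which encodes the p53-induced cyclin G1, was the 1 gene of the 10 that was lower in the knockdown library with limits apart. It stood at 66.6 FPKM (50.7 to 72.5) in control cells, 61.7 FPKM (44.9 to 66.8) in starved cells and 41.5 FPKM (31.2 to 46.5) in knockdown cells. The knockdown value was 0.624 times the control, a log2 fold change of -0.67 at rank 522 from the lowest of 11357 rows.

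**Figure D2:**
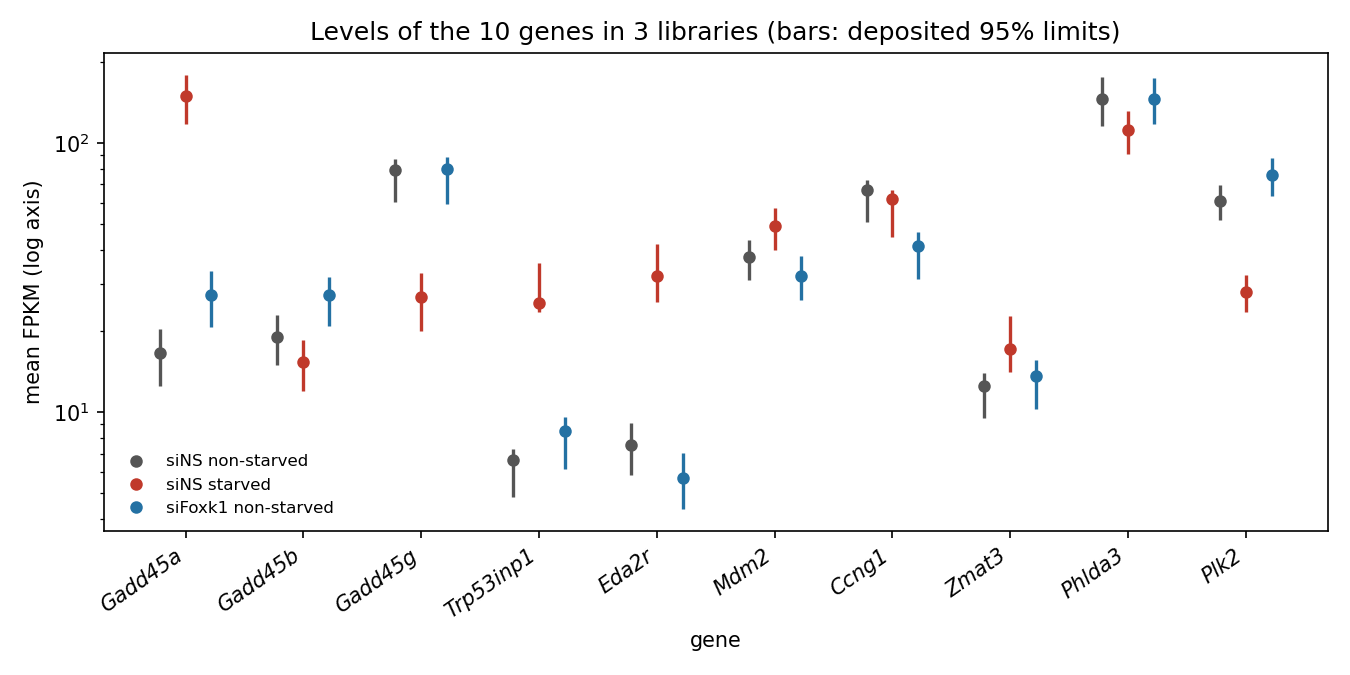
Points give mean FPKM on a log axis for the 10 genes in the control (grey), starved (red) and knockdown (blue) libraries, and vertical lines the deposited 95% limits. Gadd45a, Trp53inp1 and Eda2r stand high and Gadd45g and Plk2 low in the starved library.

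In the starved comparison 4 of the 10 genes were higher apart (Gadd45a, Eda2r, Trp53inp1 and Zmat3), and of all 11396 rows 12.2% were. Lower apart were 2 genes (Gadd45g and Plk2), beside 10.9% of all rows. At least 2-fold higher were 3 genes beside 3.12% of rows, and at least 2-fold lower 2 genes beside 3% of rows. The median log2 fold change of the 10 was 0.13, with a range from -1.54 to 3.10, and that of all rows was -0.01. The genes were chosen with earlier results of these libraries known, so nothing particular to the set is read from these counts.

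In the knockdown comparison Foxk1, the siRNA target, was 0.567 times the control (5.15 FPKM, 4.29 to 6.02, against 9.09 FPKM, 7.76 to 10.4). Of the 10 genes, 1 was higher apart (Gadd45a, 8.89% of all rows being so) and 1 lower apart (Ccng1, beside 7.13%). Gadd45a was 1.65 times the control (log2 fold change 0.69), and its nearest limits differed by a ratio of only 1.01. None of the 10 differed 2-fold or more from the control, beside 2.61% of all rows higher and 1.45% lower. The median of the 10 was 0.06 and that of all rows 0.02. These counts lie near the background, and the overlap of the other 8 genes does not show that their levels were equal.

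**Figure D3:**
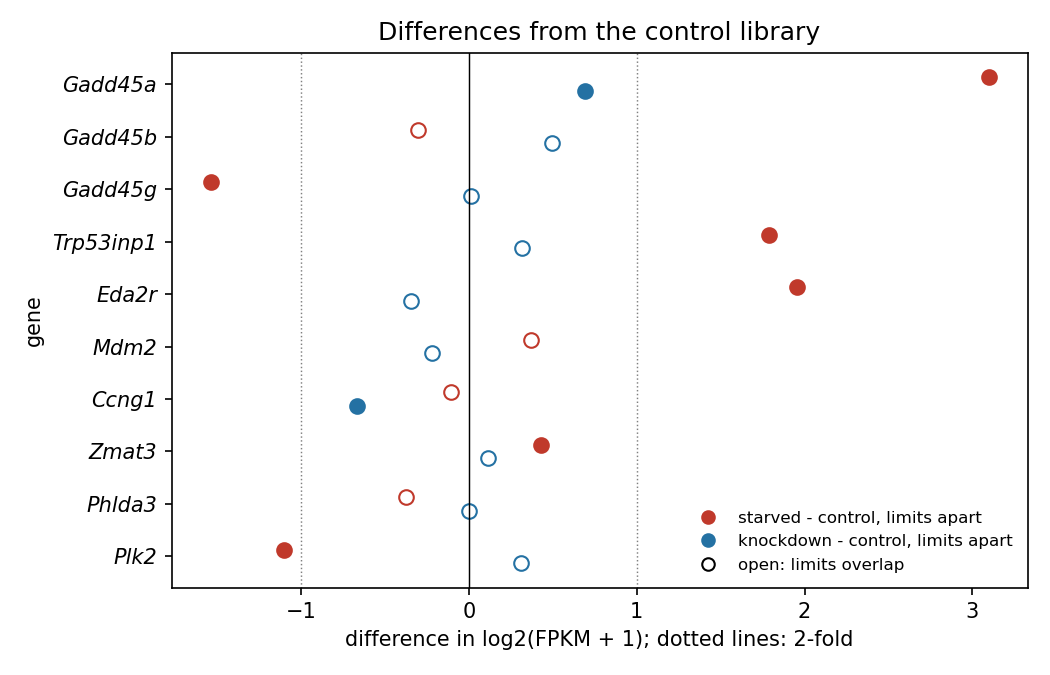
Each point is the difference in log2(FPKM + 1) from the control library, for the starved (red) and the knockdown (blue) library, filled where the deposited limits were apart. Gadd45a at 3.10 and Gadd45g at -1.54 are the extremes of the starved comparison, and all knockdown values lie between -0.67 and 0.69.

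Both comparisons use the same control library, so their values are set side by side only. Set directly against each other, the starved library was higher apart than the knockdown library for 4 genes and lower apart for 3, beside 13.3% and 13.7% of 11478 rows. At 2-fold or more 3 genes were higher, beside 4.03% of rows, and 2 were lower, beside 5.3%. The higher genes were Gadd45a (ratio 5.46), Eda2r (5.63), Trp53inp1 (2.98) and Mdm2 (1.53), and the lower ones Gadd45b (0.561), Gadd45g (0.333) and Plk2 (0.368). Ccng1, Zmat3 and Phlda3 overlapped.

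The order of levels also differed between libraries. In the control Phlda3 was highest and apart from Gadd45g, which was followed by Ccng1 and Plk2 with each neighbour overlapping. Mdm2 came next, apart from both neighbours, and Gadd45b, Gadd45a and Zmat3 overlapped in turn, with Eda2r and Trp53inp1 lowest and overlapping each other. In the starved library Gadd45a and Phlda3 led with overlapping limits, and Gadd45b was lowest, overlapping with Zmat3. In the knockdown library Phlda3 and Gadd45g again led, Plk2 followed with limits overlapping those of Gadd45g, and Eda2r was lowest, overlapping with Trp53inp1.

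The p53 gene itself did not differ beyond its limits. Trp53 stood at 114 FPKM (97.0 to 131) in control cells, 108 FPKM (91.5 to 125) in starved cells and 112 FPKM (93.6 to 131) in knockdown cells, and its inhibitor gene Mdm4 at 8.77, 11.1 and 8.73 FPKM with overlapping limits. Cdkn2a, whose ARF product restrains Mdm2, was listed at 0 in all 3 libraries. Of 19 p53 family members and regulators 15 were expressed. In the starved library 1 was higher apart, the p53 phosphatase gene Ppm1d (log2 fold change 0.62), and 2 were lower, the p53 kinase gene Hipk2 (ratio 0.469) and Ppp1r13l, which encodes the p53 inhibitor iASPP (log2 fold change -0.61). In the knockdown library Ppp1r13l was higher apart (0.78) and the checkpoint kinase gene Chek1 lower (-0.78). These are 6.67% higher and 13.3% lower in the starved library (background 12.2% and 10.9%) and 6.67% each way in the knockdown library (background 8.89% and 7.13%), and the list medians were 0.06 and -0.01.

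A list of 36 other p53 targets, of which 35 had a row, was examined in the same way. It was likewise chosen with earlier results of these libraries known, so nothing particular to it is read from its counts. In the starved library 10 of 33 expressed members were higher apart (30.3%, background 12.2%) and 2 lower (6.06%, background 10.9%), with a median log2 fold change of 0.28. Tap1, 1 of the 10, was under 1 FPKM in the control and so entered only through the starved library. The highest were Bbc3, which encodes the BH3-only protein PUMA (1.31), and the sestrin genes Sesn2 (1.15) and Sesn1 (1.09). Cdkn1a, which encodes the CDK inhibitor p21, went from 169 FPKM (144 to 193) in the control to 245 FPKM (207 to 282) in the starved library. The lower ones were 9630033F20Rik, listed by RefSeq under the symbol Tigar (-1.13), and the nuclease gene Aen (-0.72).

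In the knockdown library 4 of 32 expressed targets were higher apart (12.5%, background 8.89%) and 3 lower (9.38%, background 7.13%), with a median of 0.05. The death receptor gene Fas went from 2.15 FPKM (1.43 to 2.87) to 8.38 FPKM (6.25 to 10.5), and the antiproliferative gene Btg2 from 12.6 FPKM (9.77 to 15.2) to 39.4 FPKM (30.1 to 44.9). Their log2 fold changes were 1.58 and 1.57, and Ei24 followed at 0.94. The lower ones were Steap3 (-0.90), Gtse1 (-0.87) and Lrdd, listed by RefSeq under Pidd1 (-0.65). Cdkn1a was at 189 FPKM (159 to 219), overlapping with the control. Steap3 was higher apart in the starved library (0.73).

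**Figure D4:**
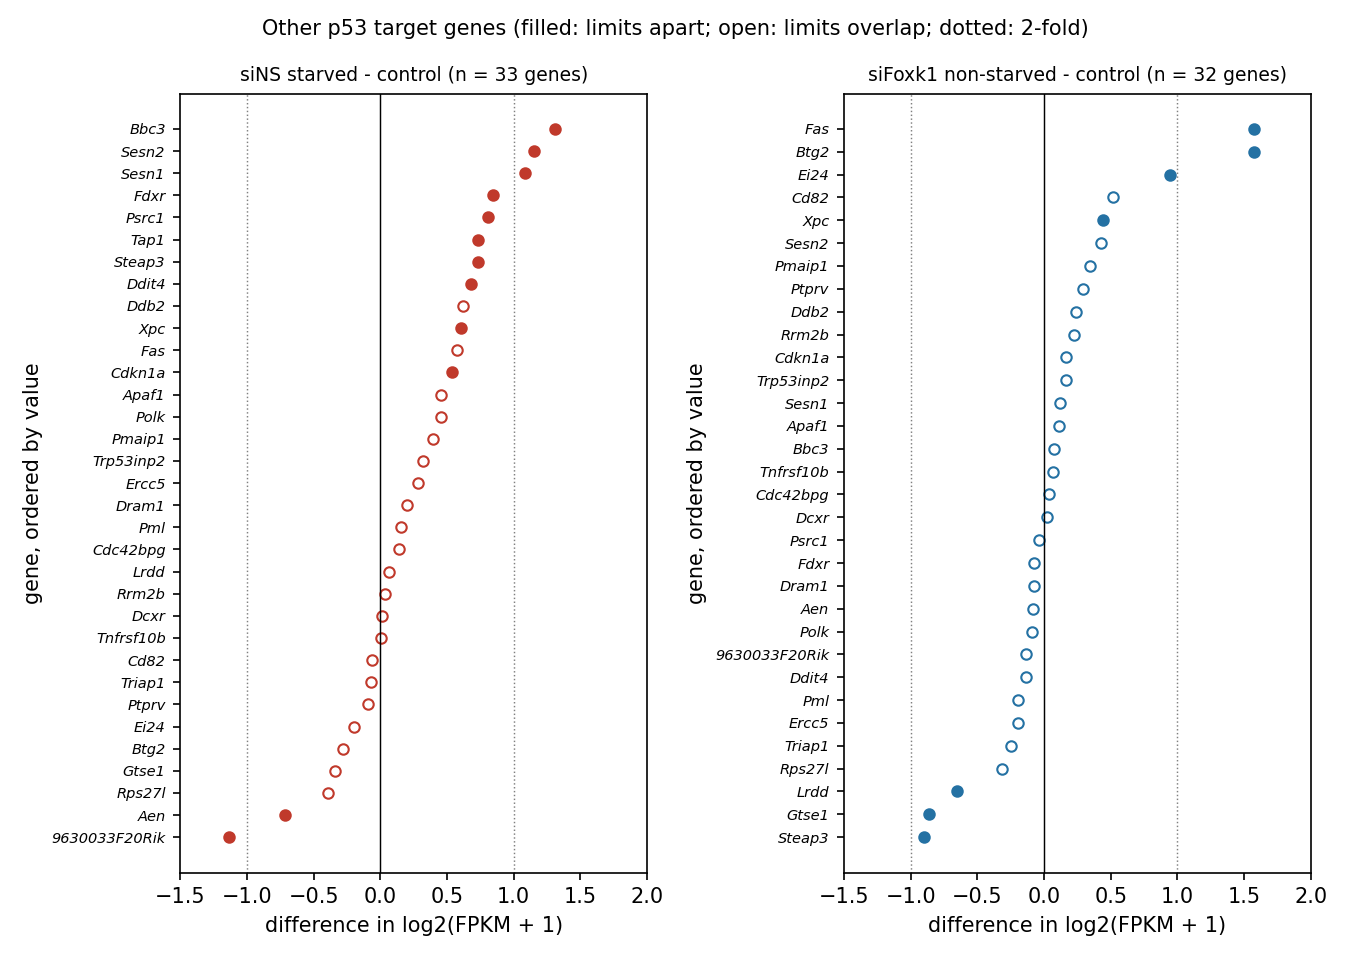
Each point is 1 of the other p53 target genes expressed in the comparison (33 in the left panel, 32 in the right), ordered by its difference in log2(FPKM + 1) from the control and filled where limits were apart. 9630033F20Rik at -1.13 and Bbc3 at 1.31 are the ends of the starved panel, and Steap3 at -0.90 and Fas at 1.58 those of the knockdown panel.

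A list of GADD45 partners and genes of the p38 and JNK cascades, also chosen with earlier results known, was examined in the same way. In the starved library 1 of 18 expressed members was higher apart (5.56%, background 12.2%) and 3 were lower (16.7%, background 10.9%). The higher one was the demethylase gene Tet1, which was under 1 FPKM in the control and so entered each comparison only through the other library, and the lower ones were all of the p38 cascade. Map2k3, a kinase that activates p38, went from 98.3 FPKM (80.9 to 116) to 29.0 FPKM (23.7 to 34.2), and the p38 genes Mapk11 and Mapk14 had log2 fold changes of -0.64 and -0.46. For Map3k4, the direct target of GADD45 proteins, all limits overlapped (11.4 FPKM with siNS, 14.0 FPKM after starvation and 12.3 FPKM with siFoxk1). In the knockdown library 4 members were lower apart (22.2%, background 7.13%) and 2 higher (11.1%, background 8.89%). The lower ones were Ccnb1 (-0.91), Cdk1 (-0.88), the p38 activator gene Map2k6 (-0.83) and Pcna (-0.66), and the higher ones Tet3 (0.78) and Tet1 (0.34). The list medians were -0.18 with starvation and -0.04 with knockdown.

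Of 14 transcription factors known to act on Gadd45 genes, 7 were higher apart (50%, background 12.2%) and 2 lower (14.3%, background 10.9%) in the starved library, with a median of 0.55. Ddit3, which encodes CHOP, stood at 23.4 FPKM (13.3 to 33.4) in control cells, 266 FPKM (181 to 313) in starved cells and 25.3 FPKM (14.1 to 36.5) in knockdown cells. Foxo3 (1.39) and Cebpb (1.23) followed, then Smad3 (0.87), Atf3 (0.73), Atf4 (0.66) and Foxo4 (0.58). Egr1 (-1.32) and Nfkb1 (-0.73) were the lower ones. In the knockdown library 3 were higher apart (21.4%, background 8.89%), namely Foxo1 (1.09), Egr1 (0.64) and Smad3 (0.53). Lower apart were 2 (14.3%, background 7.13%), Atf3 (-1.34) and Brca1 (-0.65), and the median was 0.15. The list of factors was chosen with earlier results of these libraries known, so nothing particular to it is read from these counts.

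The rows most like each Gadd45 gene were sought among 8957 single-gene rows at 5 FPKM or more in any of the 3 libraries. Likeness was measured as distance in the plane of the 2 log2 fold changes. Nearest to Gadd45a were Vldlr (distance 0.39), Txnip (0.39) and E230016M11Rik (0.51). Vldlr stood at 0.561 FPKM in control, 9.24 FPKM in starved and 1.39 FPKM in knockdown cells, so it passed the filter only through the starved library. Its control value is below the pseudocount of 1 FPKM, on which its distance therefore depends. Zfp281, Masp1 and Ppil2 were nearest to Gadd45b, at distances from 0.01 to 0.02. Pspc1 (0.03), Trmt61a (0.15) and Kcnf1 (0.15) were nearest to Gadd45g. Gadd45a lay in a sparse region, since its nearest row was farther away than those of the other 2 genes.

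FPKM summed to between 527673 and 566803 per library, and 11100 to 11171 rows reached 1 FPKM. Read depth is unknown. The median half-width of the limits was 17.7% to 19.5% of the value at 5 FPKM or more. All 8 myoblast markers were at 1 FPKM or more in every library, with a summed level of 941 FPKM for control, 831 FPKM for starved and 965 FPKM for knockdown cells, and in the starved library Myod1 was lower apart (-2.60) and Myf5 higher apart (0.78). Summed levels of 10 markers of differentiated muscle were 70.9, 54.1 and 269.6 FPKM in the same order. In the knockdown library all 9 expressed ones were higher apart (background 8.89%), of which Ckm entered only through that library, and their part in the Gadd45a and Ccng1 differences was not tested. No endothelial marker of 6 reached 1 FPKM, and of blood, epithelial and adipocyte markers 1 each did (Cd68, Krt14 and Cebpa). The others of these lists lay below that level, with Cd3e, Plin1 and Lep at 0 throughout. In control, starved and knockdown cells Krt14 stood at 6.11, 3.25 and 14.2 FPKM and Cebpa at 6.08, 12.7 and 9.66 FPKM. Both genes were apart from the control in each comparison. Of the neural markers, Tubb3 reached 1 FPKM in every library and Mbp in starved cells.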

How the data were processed

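RNA of 3 libraries was used, with groups taken from the sample titles. The 3 ChIP and input samples were not used here, since their regions are in mm9 and no annotation of that build was used. The authors deposited mean FPKM and 95% limits per gene symbol, per the file headers. Cufflinks 2.1.1, Cuffdiff, TopHat2 2.0.9 and Bowtie2 2.1.0 appear, with mm9 as the build, per the submitters' processing notes, which assign no roles. Which annotation was used, how limits were computed and whether replicates were pooled was not given in the sources used here.

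FPKM was used as deposited, without rescaling. Of 22989 rows, 1 (Zzz3) was left out for limits in the wrong order. Rps27l, counted among the other p53 targets, was kept although its mean lay above its own upper limit in all 3 libraries. In the control it was 414 FPKM with limits of 201 to 289 FPKM, so its call by limits does not describe its mean. Comparisons covered rows reaching 1 FPKM in either of their libraries, fold changes used a pseudocount of 1 FPKM, and 2-fold was the size threshold. FPKM keeps no read counts, so depth is unknown and count models were not used. Alternatives covered pseudocount, filter, scaling and threshold. Listed genes not found by symbol were matched through RefSeq synonyms (2 members), and Bax, Map2k7 and Hbb-b1 had no row of their own. All 10 genes were named. For other lists the 3 highest and 3 lowest fold changes and a few fixed genes could be named, and further members apart were named after their values were seen. A listed p53 target and a listed blood cell marker are not reported here and were left out of their lists. Members and lists were chosen with earlier results of these data known. Scripts were tested on simulated data and used Python 3.11.15, numpy 2.4.6, pandas 2.3.3 and matplotlib 3.10.9.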

Additional observations from a re-analysis of the deposited data

How the results depend on the processing

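Counts of the 10 genes apart had the same values in both comparisons with no filter, a filter of 5 FPKM, division by the median ratio and scaling to TPM. All 10 genes were above 5 FPKM in every library, so a change of filter could not alter their counts by either rule. Counts at 2-fold or more, for which pseudocounts of 0.1 and 5 FPKM and a threshold of 1.5-fold were also run, had the same values in the starved comparison under each of these. In the knockdown comparison they did so except for the 1.5-fold threshold, where 1 gene was counted higher and 1 lower in place of 0 and 0, because the threshold itself is lower. All 80 fold changes of single genes under another pseudocount or scaling moved by less than a yardstick from the limits. The yardstick was the half-width of the fold change's range between its nearest and farthest limits. Each scaling divides a whole library by 1 divisor and so shifts all genes by nearly the same amount. The 80 values are therefore not 80 separate checks. Phlda3 in the knockdown library, 0.0019 as deposited, was -0.0029 after division by the median ratio. The starved Gadd45a value ranged from 2.84 (pseudocount 5) to 3.23 (TPM). No paired analysis was possible because each group has 1 library, and for the same reason no library could be left out. For the 2 calls whose limits barely part (Zmat3 starved, Gadd45a knockdown) the depth that sets the limits is unknown.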

Other observations

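Close relatives of the p53 targets were alike in the starved library in some cases and not in others. Plk3 was lower apart like Plk2, while Plk1 and Plk4 overlapped with the control. Zmat1 was higher apart like Zmat3, while Zmat2 and Zmat5 overlapped with the control. Mdm4 and Mdm2 both overlapped with the control. Ccng2, which encodes the cyclin G2 paralog of Ccng1 and is known as a FoxO target, stood at 17.0 FPKM (12.7 to 19.8) in the control, 80.2 FPKM (57.8 to 85.9) in the starved and 24.7 FPKM (18.3 to 27.5) in the knockdown library. The starved value was thus 4.72 times the control with limits apart, where Ccng1 had a ratio of 0.927 with limits overlapping. Phlda1, a relative of Phlda3, stood at 159 FPKM (129 to 194), 22.5 FPKM (17.7 to 26.5) and 140.1 FPKM (111 to 171) in the same order, the starved library alone being low (ratio 0.142).

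The polo-like kinase gene Plk3, like Plk2 known as a stress gene, stood at 19.1 FPKM (15.8 to 22.4), 7.43 FPKM (6.11 to 8.75) and 12.6 FPKM (10.2 to 15.0), and was lower apart in both the starved and the knockdown library. The mitotic Plk1 went from 69.3 FPKM (57.7 to 80.5) in the control to 35.5 FPKM (29.1 to 41.9) in the knockdown library, and Plk4 from 23.8 FPKM (20.1 to 27.5) to 16.5 FPKM (13.7 to 19.3), both apart, while Plk2 was 1.24 times the control there with limits overlapping. Of 12 expressed paralogs and partners, 3 were higher apart and 2 lower in the starved library (25% and 16.7%, background 12.2% and 10.9%), and 1 higher and 3 lower in the knockdown library (8.33% and 25%, background 8.89% and 7.13%). The differences between relatives were not tested.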
